A study of Mus musculus with 12 samples.

Results

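Of 10 matricellular and adhesive glycoprotein transcripts in primary mouse adult fibroblasts (MAFs), 1 was called higher with thymol, beside 0.654% of all genes. It was *Spp1*, which encodes osteopontin, higher by 16.4% (limma adjusted p = 0.018). The call was lost in 4 of 12 fits that each left out 1 library, and under several other ways of processing, among them robust fitting and quantile normalization. The other 9 genes, *Fn1*, *Sparc*, *Postn*, *Tnc*, *Thbs1*, *Thbs2*, *Ccn1*, *Ccn2* and *Fbln2*, did not pass the test. Among these, *Fbln2* (fibulin-2) was lower in every thymol library than in every DMSO library (a difference of -9.67% between means). These genes were chosen by symbol from a list of secreted glycoproteins, and all 10 were among the 10697 genes measured.

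Matricellular proteins are secreted into the extracellular matrix, where they act on cell adhesion, growth factor activity and matrix assembly more than as structural fibres. Fibronectin and the fibulins are adhesive or scaffold glycoproteins of the same space, and cells bind most of these proteins through integrins, syndecans, CD44 or CD47. Fibroblasts make many of them, and their amounts are known to rise in wounds, in fibrosis and after TGF-β or mechanical stimulation. *Ccn1* and *Ccn2* are textbook targets of the coactivators YAP and TAZ, which reach DNA through TEAD factors.

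The MAFs were grown from biopsies of wild-type (WT) C57BL6/j mice in high-glucose DMEM with fetal bovine serum. In the Thymol100 group, thymol, a plant phenolic monoterpene, was dissolved in DMSO and given at 100 µM for 24 h, and the DMSO group received the same volume of solvent, so both groups carried DMSO. Each group held 6 libraries, numbered 1 to 6. The labels do not state the biopsied tissue, the age or number of the mice, or whether libraries came from separate cultures, so p-values measure the spread between these libraries, which may be technical. RNA was measured by QuantSeq 3′ sequencing, which gives about 1 read per transcript irrespective of length, and levels are log2 CPM throughout, where CPM are reads scaled for the size of each library.

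RefSeq promoter windows, which run from 250 bases before a transcript start to 50 bases after it on GRCm38.p6, matched 7 of the 10 genes with 10 windows. *Fn1*, *Thbs1* and *Ccn2* had no entry. Windows of 3 genes are printed, 5′ to 3′ on the gene's strand: *Spp1* because it alone passed the test, *Fbln2* because its groups did not overlap, and *Ccn1* as the TEAD target. Capitals mark CATTCC, the core that TEAD factors bind, and TATAAA, the letters of a TATA box, at whatever position in the window they lay.
Spp1 (chr5:104434861-104435160, + strand): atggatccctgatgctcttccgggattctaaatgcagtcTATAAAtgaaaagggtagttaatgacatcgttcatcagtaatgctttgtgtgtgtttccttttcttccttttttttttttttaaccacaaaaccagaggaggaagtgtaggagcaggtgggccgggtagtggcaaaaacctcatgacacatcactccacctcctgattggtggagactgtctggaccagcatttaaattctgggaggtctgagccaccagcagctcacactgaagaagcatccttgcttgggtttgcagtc
Fbln2 (chr6:91212514-91212813, + strand): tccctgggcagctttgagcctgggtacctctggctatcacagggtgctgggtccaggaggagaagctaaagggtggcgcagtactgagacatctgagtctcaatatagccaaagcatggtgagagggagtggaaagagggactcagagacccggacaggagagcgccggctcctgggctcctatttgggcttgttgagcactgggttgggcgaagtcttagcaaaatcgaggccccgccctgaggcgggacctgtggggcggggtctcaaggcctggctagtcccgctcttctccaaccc
Ccn1 (chr3:145649936-145650235, - strand): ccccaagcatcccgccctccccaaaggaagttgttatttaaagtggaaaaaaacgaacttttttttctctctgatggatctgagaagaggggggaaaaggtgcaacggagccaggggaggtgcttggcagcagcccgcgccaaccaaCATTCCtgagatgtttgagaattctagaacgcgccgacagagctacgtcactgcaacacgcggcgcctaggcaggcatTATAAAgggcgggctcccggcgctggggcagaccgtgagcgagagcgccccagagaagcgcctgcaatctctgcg
The printed *Spp1* window held TATAAA at position -211 from the start, a second *Spp1* window (chr5:104435942-104436241, not printed) held no motif searched, *Ccn1* held CATTCC at -103 and TATAAA at -25, and the *Fbln2* window held no motif searched. Both strands were searched, also for TGANTCA (AP-1), and no match overlapped another. Counted by window, 6 of the 10 held TATAAA, 1 held CATTCC and 0 held TGANTCA, and the shares of all 32851 windows were 13.6%, 14.7% and 7.81%. The windows are not independent, since *Spp1*, *Postn* and *Tnc* have 2 each and the *Tnc* windows overlap and hold the same TATAAA. In the windows not printed, TATAAA lay at -26 in *Postn*, at -126 and -205 in *Tnc* and, on the opposite strand, at -126 in *Thbs2*. A match describes letters in the window and not a bound factor.

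Libraries held 5435985 to 9049796 reads over the measured genes. The adult fibroblast label was checked against markers. Of 13 fibroblast markers 11 were measured, *Lum* and *Fap* being the others, with a median level of 8.35, and all 17 macrophage markers were measured, with a median of 8.47. *Col1a1*, the main fibrillar collagen chain, averaged 11.95 in DMSO, while *Lyz2*, the macrophage lysozyme, averaged 13.61, so the culture carried abundant markers of both cell types. Markers of other cell types were fewer: 2 of 7 endothelial, 3 of 6 mural and 1 of 7 epithelial markers were measured. The endothelial markers summed to at most 9.19 CPM in any library. The mural markers summed to 193 to 231 CPM in DMSO, where the mural marker *Myh11* averaged 7.57. In bulk RNA, fewer cells of a type and less RNA per cell cannot be told apart. The thymol library of replicate 1 stood apart for 2 of the 10 genes, lying 0.40 below its group mean for *Ccn1* and 0.45 below for *Ccn2*, and both genes are given with and without it. Odd- and even-numbered libraries had differed in an earlier look at these data, and the values within each are given for the genes whose call they moved.

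In DMSO the 10 genes spanned a wide range of levels. *Ccn2* (connective tissue growth factor) was highest at 12.53 ± 0.13 (SD, n = 6), or 5914 CPM, and *Sparc* (osteonectin) followed at 12.32 ± 0.034, or 5102 CPM. Both lay at the 99.9th percentile of all genes. *Thbs1* (11.31 ± 0.083) and *Spp1* (11.28 ± 0.19) came next, then *Tnc* (10.24 ± 0.083), *Fn1* (10.13 ± 0.069) and *Fbln2* (10.07 ± 0.055). *Ccn1* stood at 8.87 ± 0.13, which is 469 CPM. *Thbs2* (5.51 ± 0.16) and *Postn* (4.55 ± 0.49) were far lower, at 45.6 and 24.4 CPM. The library ranges of neighbouring genes overlapped for *Ccn2* and *Sparc*, for *Thbs1* and *Spp1*, for *Tnc* and *Fn1* and for *Fn1* and *Fbln2*, and not for the other neighbours. In thymol *Spp1* (11.50 ± 0.088) stood above *Thbs1* (11.17 ± 0.17), and *Fn1* (10.20 ± 0.12) above *Tnc* (10.14 ± 0.10), each pair with overlapping ranges. Together the 10 genes took 1.87% to 2.10% of CPM in the DMSO libraries and 1.74% to 2.07% in the thymol libraries.

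**Figure D1:**
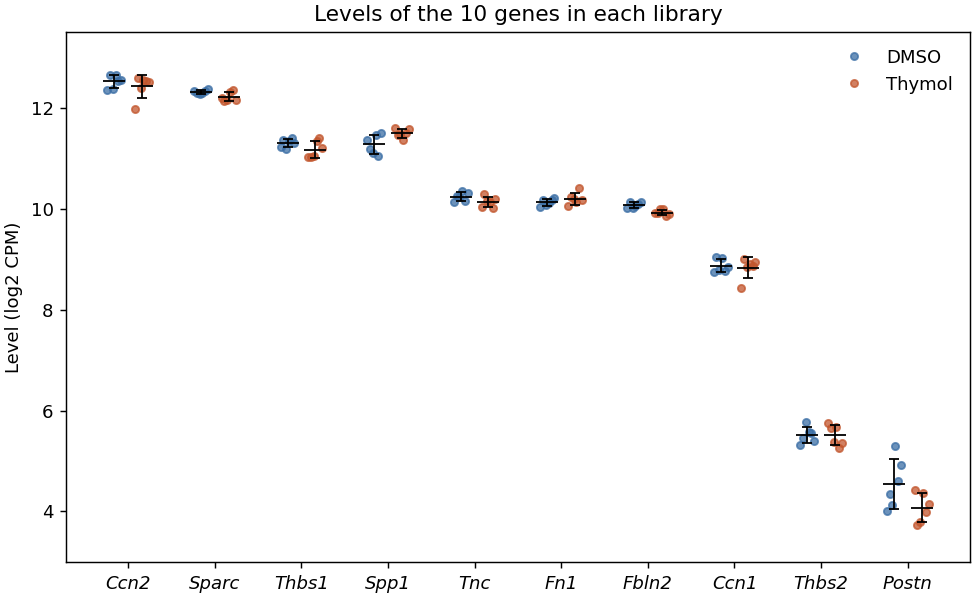
Level (log2 CPM) of the 10 genes in each library, ordered by the DMSO mean. Points are libraries, 6 per group (blue, DMSO; orange, thymol), long bars are means and whiskers are 1 SD. Means in DMSO run from 12.53 for *Ccn2* to 4.55 for *Postn*, and the thymol library at 11.98 for *Ccn2* and 8.43 for *Ccn1* is replicate 1.

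The first question was which of the 10 transcripts changed with thymol. By limma with an adjusted p under 0.05 over all genes, 1 of 10 passed, and 2.22% of all genes did. In that test 1 of 10 was higher with thymol, beside 0.654% of all genes, and 0 of 10 were lower, beside 1.57%. At an unadjusted p under 0.05 there were 6 of 10 genes, beside 11.8% of all genes, and 5 of these were lower, beside 6.44%. In 1 of 10 all 6 thymol values lay below all 6 DMSO values, as in 1.16% of all genes. Means were lower with thymol in 7 genes and higher in 3, and the median difference (thymol minus DMSO) was -0.097, against 0.0026 over all genes. Of the 10 genes, 8 lay at or above the 97.4th percentile of level. The median SD within groups was 0.083 for genes at a mean level of at least 8.5 and 0.24 for genes at 4 to 5.

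**Figure D2:**
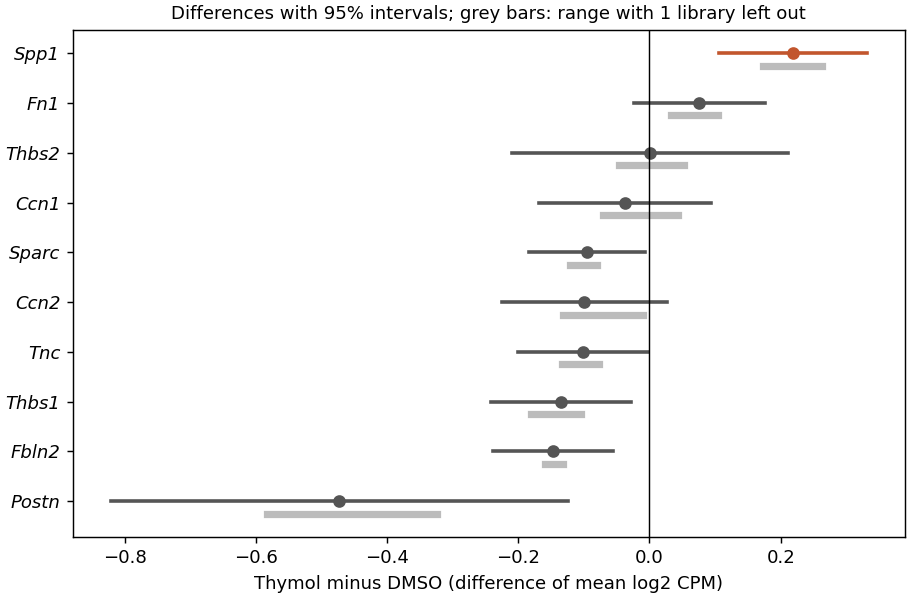
Thymol minus DMSO difference of mean log2 CPM for each of the 10 genes. Points are differences with 95% intervals, the orange point is the gene past the adjusted threshold, and each grey bar below spans the values with 1 library left out. *Spp1* lies at 0.22 and *Postn* at -0.47, and the grey bars of *Thbs2* and *Ccn1* reach both sides of 0.

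*Spp1* (chr5:104435118-104441050, + strand; gene coordinates are GENCODE vM21 on GRCm38) encodes osteopontin, a phosphorylated ligand of αv integrins and CD44 that macrophages as well as mesenchymal cells secrete. Thymol libraries ran from 11.36 through a median of 11.49 to 11.60, and DMSO libraries from 11.05 through 11.28 to 11.50. All 6 thymol values lay above the DMSO mean and 3 lay above every DMSO value, so the groups overlapped. The difference was 0.22 ± 0.056 (SE; 95% interval 0.11 to 0.33), an increase of 16.4%, with a limma adjusted p of 0.018. Exact permutation of the group labels, two-sided, gave an unadjusted p of 0.035, and 1175 of all genes had an unadjusted p under 0.05 in that test. DMSO libraries spread widely, and the SD within groups was 0.15, against a median of 0.083 for the 374 genes with a mean of at least 8.5. The call was lost without thymol replicate 6 (0.20), or without DMSO replicate 2 (0.20), 3 (0.18) or 5 (0.17), and was kept without each of the other 8 libraries. Odd-numbered libraries alone gave 0.36 (limma adjusted p = 0.012) and even-numbered libraries 0.079 (adjusted p = 0.66). The difference between these, 0.28 ± 0.10, had a limma adjusted p of 0.99 over all genes. Macrophage markers were measured beside *Spp1*. Of the 17, 1 rose, 2 fell and 14 did not pass, beside 0.654% of all genes risen and 1.57% fallen. Their summed level was 19367 to 23090 CPM in thymol and 19237 to 21221 in DMSO, and the weakest marker, *Aif1*, averaged 5.80 and 5.84. *Mpeg1* rose (0.21, limma adjusted p = 0.021), and *Cd14* (-0.78, adjusted p = 7.3e-10) and *Itgam* (-0.31, adjusted p = 0.00071) fell. *Lyz2* differed by 0.080 (limma adjusted p = 0.54) and *Cd68*, a macrophage lysosomal protein, by 0.18 (adjusted p = 0.055). Of the 17 markers, 8 had a higher mean in thymol and 9 a lower one. Their part in the *Spp1* result was not tested.

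*Fbln2* (chr6:91212455-91272540, + strand) encodes fibulin-2, which binds fibronectin, fibrillin and basement membrane proteins. Values were 9.85, 9.91 and 9.99 (lowest, median, highest) in thymol and 10.01, 10.08 and 10.13 in DMSO. Every thymol library lay below every DMSO library, though the highest thymol value came close to the lowest DMSO value. The difference was -0.15 ± 0.046 (95% interval -0.24 to -0.055), or -9.67%, and missed the threshold with a limma adjusted p of 0.075. The exact two-sided permutation p was 0.0022, unadjusted, which is the smallest that 6 against 6 can give. *Fn1* (chr1:71585520-71653200, - strand) encodes fibronectin, the adhesive fibril that cells assemble through integrins and on which several of the other proteins deposit. Its thymol libraries lay at 10.06, 10.19 and 10.42 and its DMSO libraries at 10.03, 10.14 and 10.21, with 2 thymol values above all DMSO values. The difference of 0.076 ± 0.050 (95% interval -0.024 to 0.18) had a limma adjusted p of 0.61. As a percentage the interval ran from -1.64% to 13.0%. Without thymol replicate 5, the highest library, the difference was 0.033.

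**Figure D3:**
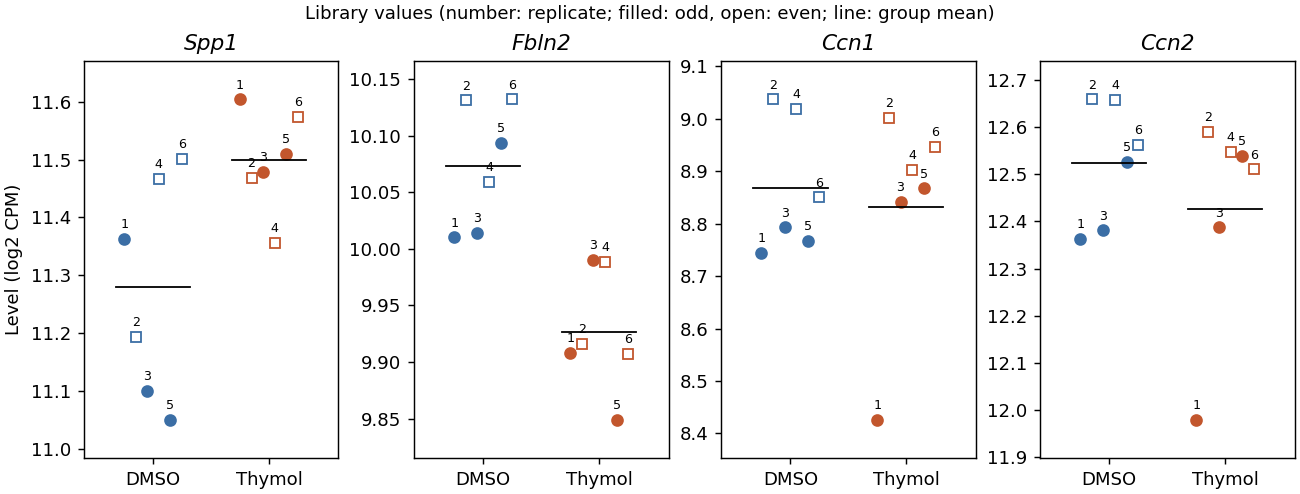
Library levels (log2 CPM) of *Spp1*, *Fbln2*, *Ccn1* and *Ccn2* in DMSO (blue) and thymol (orange), each panel on its own axis. Symbols carry the replicate number, filled for odd and open for even, and lines are group means. The groups overlap in *Spp1* and do not in *Fbln2*, and thymol replicate 1 lies far below the rest in *Ccn1* (8.43) and *Ccn2* (11.98).

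*Sparc* and *Postn* encode proteins that bind collagen. *Sparc* (chr11:55394500-55423183, - strand) encodes osteonectin, a calcium-binding chaperone of collagen assembly. Its thymol libraries lay at 12.14, 12.18 and 12.35 and its DMSO libraries at 12.28, 12.31 and 12.37. Of the 6 thymol values, 4 lay below all DMSO values and the others fell within the DMSO range. The difference was -0.095 ± 0.044 (95% interval -0.18 to -0.0066), with a limma adjusted p of 0.36 and an unadjusted exact permutation p of 0.0498. It was -0.013 on quantile-normalized values. *Postn* (chr3:54361109-54391037, + strand) encodes periostin, which helps to crosslink collagen. Its values were 3.74, 4.07 and 4.42 in thymol and 4.00, 4.47 and 5.29 in DMSO, so the groups overlapped although all 6 thymol values lay below the DMSO mean. This was the largest difference of the 10 in size, -0.47 ± 0.17 (95% interval -0.82 to -0.12), or -27.9%. It did not pass (limma adjusted p = 0.185, unadjusted exact permutation p = 0.078). It rested on means of 109.5 reads in thymol and 169.5 in DMSO. The DMSO SD of 0.49 compares with a median SD within groups of 0.24 for genes at a mean level of 4 to 5. Without DMSO replicate 4, the highest library, the difference was -0.32 (adjusted p = 0.50 in limma). Even-numbered libraries alone gave -0.77, which passed (limma adjusted p = 0.049), and odd-numbered libraries gave -0.18. The difference between these, 0.59 ± 0.33, had a limma adjusted p of 1.00.

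*Tnc*, *Thbs1* and *Thbs2* encode glycoproteins that modulate adhesion. *Tnc* (chr4:63959785-64047015, - strand) encodes tenascin-C, which weakens adhesion to fibronectin and appears at wound edges. Its thymol libraries lay at 10.02, 10.15 and 10.30 and its DMSO libraries at 10.14, 10.25 and 10.34, with 3 thymol values below all DMSO values. The difference of -0.10 ± 0.049 (95% interval -0.20 to -0.0025) had a limma adjusted p of 0.41. *Thbs1* (chr2:118111876-118127133, + strand) encodes thrombospondin-1, which binds CD47 and CD36 and can release TGF-β from its latent complex. Values were 11.02, 11.12 and 11.40 in thymol and 11.19, 11.33 and 11.40 in DMSO. Thymol libraries 1, 2 and 3 lay below all DMSO libraries, and library 5 lay at the top of the DMSO range. The difference was -0.13 ± 0.053 (95% interval -0.24 to -0.028; limma adjusted p = 0.24), and without thymol replicate 5 it was -0.18 and passed (adjusted p = 0.036). *Thbs2* (chr17:14665500-14694235, - strand) encodes thrombospondin-2, an inhibitor of angiogenesis that lowers matrix metalloproteinase levels by endocytosis. It ran 5.26, 5.52 and 5.75 in thymol and 5.33, 5.51 and 5.78 in DMSO, and the ranges nearly coincided. The difference was 0.00048 ± 0.10 (95% interval -0.21 to 0.21, or -13.6% to 15.8%), on 295 and 323 mean reads, so a change within that interval was not excluded.

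*Ccn1* and *Ccn2* encode matricellular proteins of the CCN family, which bind integrins and heparan sulfate proteoglycans. *Ccn1* (chr3:145646976-145649981, - strand) lay at 8.43, 8.88 and 9.00 in thymol and at 8.74, 8.82 and 9.04 in DMSO. The lowest value was thymol replicate 1, and the other 5 thymol libraries lay within the DMSO range. The difference was -0.037 ± 0.065 (95% interval -0.17 to 0.093; limma adjusted p = 0.91), and it turned to 0.043 (adjusted p = 0.85) without thymol replicate 1. *Ccn2* (chr10:24595442-24598683, + strand) lay at 11.98, 12.52 and 12.59 in thymol and at 12.36, 12.55 and 12.66 in DMSO, and again only thymol replicate 1 lay outside the DMSO range. The difference was -0.099 ± 0.063 (95% interval -0.22 to 0.026; limma adjusted p = 0.58), and -0.010 (adjusted p = 0.97) without thymol replicate 1. That library held 6585162 reads, within the range of the others. Of 19 other YAP and TAZ target genes it lay below its group mean for 11 and was the lowest of its group for 6, with a median deviation of -0.048. Of all genes, 17.8% were lowest of their group in this library. Among the other libraries, thymol replicate 6 and DMSO replicates 2 and 3 lay below their group mean for 13 of the 19, and DMSO replicates 4 and 5 were lowest for 5. On quantile-normalized values *Ccn2* passed the threshold as lower (-0.23, limma adjusted p = 0.011), and *Spp1* (0.18, adjusted p = 0.058) did not pass.

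Related genes were described from 5 lists, with a few named for their role rather than their rank. Among 34 other matricellular and adhesive glycoproteins, 18 were measured, 4 fell, 0 rose and 14 did not pass, with a median difference of -0.15. Over all genes 1.57% fell and 0.654% rose, with a median of 0.0026, and the same shares apply to each list and marker count that follows. *Ccn5*, a CCN protein that lacks the C-terminal domain of its relatives, fell from 7.26 to 6.89 (-0.37 ± 0.073, limma adjusted p = 0.0011), and all 6 thymol values lay below all DMSO values. *Tgfbi*, a TGF-β-induced integrin ligand, fell from 5.64 to 5.07 (-0.56 ± 0.11, limma adjusted p = 0.0013). *Fstl1*, a secreted SPARC relative, fell from 9.79 to 9.54 (-0.25 ± 0.056, adjusted p = 0.0050 in limma). The fourth, *Fbln5*, an elastic fibre fibulin named after its values were seen, fell from 7.58 to 7.31 (limma adjusted p = 0.040), a call lost without any 1 of 8 libraries, thymol 1, 2, 3 and 6 and DMSO 2, 4, 5 and 6 (-0.27 to -0.21). All 4 passed in even-numbered libraries alone (-0.72 to -0.31), where 167 of all genes passed, and none in odd-numbered libraries alone, where 70 did. In the odd-numbered libraries *Ccn5* stood at -0.27 (limma adjusted p = 0.30), *Tgfbi* at -0.41 (0.31), *Fstl1* at -0.19 (0.49) and *Fbln5* at -0.17 (0.76). The difference between odd and even sets had a limma adjusted p of 0.997 for each of the 4, and 0 of all genes passed for it. *Ccn4*, the CCN relative nearest in level to *Ccn1*, stood at 8.70 in thymol and 8.63 in DMSO (limma adjusted p = 0.64).

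Of 26 receptors and co-receptors, 24 were measured, with 1 risen, 1 fallen and 22 that did not pass, and a median difference of -0.049. Both genes encode integrin α chains that pair with β2 on myeloid cells. *Itgam* fell from 8.05 to 7.74 (-0.31 ± 0.059, limma adjusted p = 0.00071), with all 6 thymol values below all DMSO values. *Itgax*, for CD11c, rose from 4.80 to 5.24 (0.45 ± 0.12, limma adjusted p = 0.022), with all 6 thymol values above, and its call was lost without thymol 3 or 6 or DMSO 3 or 4 (0.39 to 0.44). In odd-numbered libraries alone *Itgam* stood at -0.24 (limma adjusted p = 0.31), and it passed in even-numbered ones (-0.37). *Itgax* passed in neither set alone (0.46 odd, adjusted p = 0.32 in limma; 0.43 even, 0.30). *Itgb1*, the β1 chain of the fibronectin receptor, stood at 10.93 and 11.04 in thymol and DMSO (limma adjusted p = 0.25), *Cd44* at 9.61 and 9.64 (adjusted p = 0.91), and *Sdc4*, a fibronectin co-receptor, at 7.17 and 7.44 (adjusted p = 0.059).

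Among the 20 YAP and TAZ targets, 19 were measured, 3 fell, 0 rose and 16 did not pass, with a median of -0.10. *Tgfb2*, a TGF-β ligand, fell from 6.67 to 6.09 (-0.58 ± 0.088, limma adjusted p = 1.1e-05), and *Ccdc80*, a secreted matrix protein, fell from 8.91 to 8.61 (-0.29 ± 0.058, adjusted p = 0.00093). *Crim1*, a membrane regulator of BMP signalling, fell from 8.61 to 8.41 (-0.20 ± 0.053, limma adjusted p = 0.025), and its call was lost without thymol 1, 3 or 6 or DMSO 4 or 6 (-0.20 to -0.17), as it was in odd-numbered (-0.20, adjusted p = 0.39) and even-numbered libraries alone (-0.19, 0.21). *Ankrd1*, a widely used readout of YAP, stood at 10.84 in both groups (-0.0022, adjusted p = 1.00). Of 19 upstream regulators 18 were measured, 1 fell and 17 did not pass, with a median of 0.015. The 1 was the ligand *Tgfb3*, which fell from 7.35 to 7.03 (-0.32 ± 0.072, limma adjusted p = 0.0047), and passed in odd-numbered libraries (-0.39) but not in even-numbered ones (-0.26, adjusted p = 0.22). *Yap1* (7.38 and 7.40) and *Wwtr1*, which encodes TAZ (7.37 and 7.36), had limma adjusted p of 0.96 and 0.99.

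Of 16 enzymes that cross-link, cleave or phosphorylate these proteins, all were measured, 1 rose, 2 fell and 13 did not pass, with a median of -0.052. *Tgm2*, the transglutaminase that cross-links fibronectin and osteopontin, fell from 8.77 to 8.29 (-0.48 ± 0.060, limma adjusted p = 1.5e-07), with all 6 thymol values below all DMSO values. *Mmp12*, the macrophage elastase, rose from 8.65 to 9.10 (0.45 ± 0.065, limma adjusted p = 5.3e-06), with 5 of 6 thymol values above all DMSO values. *Adamts1*, a protease of matrix proteoglycans, fell from 6.86 to 6.52 (-0.34 ± 0.087, limma adjusted p = 0.017), and its call was lost without thymol 3 (-0.30) or 6 (-0.24), and in odd-numbered (-0.30, adjusted p = 0.34) and even-numbered libraries alone (-0.38, 0.057). *Fam20c*, the kinase that phosphorylates osteopontin, stood at 5.87 in thymol and 5.67 in DMSO (limma adjusted p = 0.36).

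**Figure D4:**
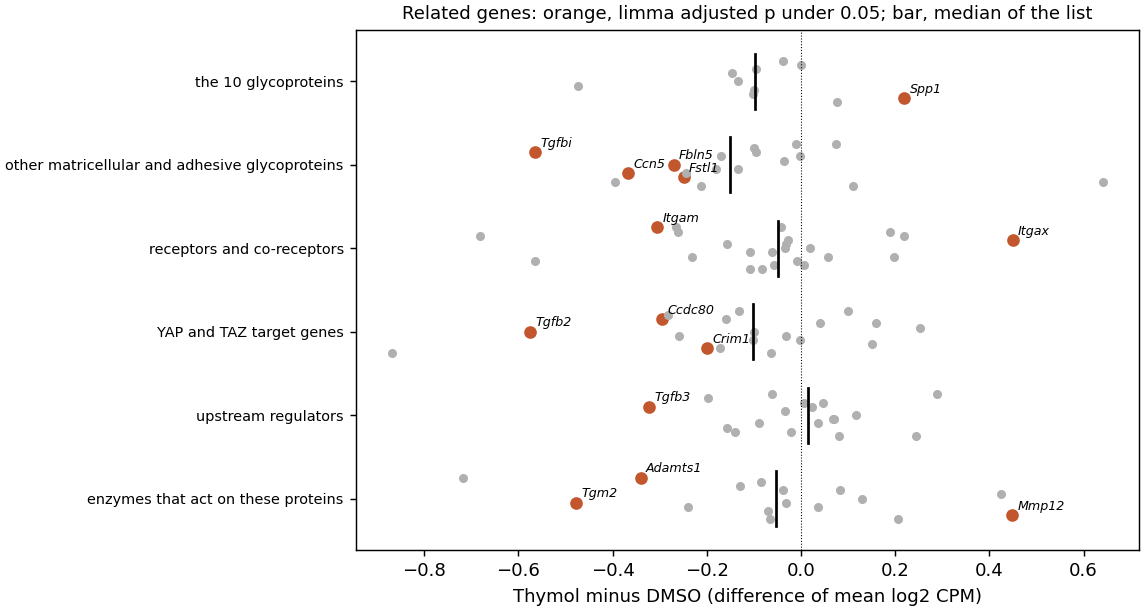
Thymol minus DMSO difference of mean log2 CPM for the 10 glycoproteins and the measured genes of 5 related lists. Each point is a gene, orange where limma's adjusted p was under 0.05, and bars are list medians. The bars lie between -0.15 for the other glycoproteins and 0.015 for the upstream regulators.

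Fibroblast markers were read beside the lower values. Of 11 measured, 2 fell, 0 rose and 9 did not pass, and their summed level was 13008 to 13700 CPM in thymol and 13890 to 14896 in DMSO, ranges that did not overlap. Both that fell were collagen genes. *Col1a1* fell from 11.95 to 11.68 (-0.28 ± 0.044, limma adjusted p = 2.9e-05; -0.27 with adjusted p = 0.068 in odd-numbered libraries alone). It averaged 3276 CPM in thymol and 3965 in DMSO, a large part of the summed level. *Col3a1* fell from 8.88 to 8.34 (-0.54, limma adjusted p = 4.4e-10). Of the 11 markers, 4 had a higher mean in thymol and 7 a lower one. *Pdgfra*, the fibroblast PDGF receptor, stood at 4.74 in thymol and 4.40 in DMSO (limma adjusted p = 0.28). Mural cell markers summed to 119 to 218 CPM in thymol and 193 to 231 in DMSO, with 1 of 3 fallen, *Myh11* (-0.37, limma adjusted p = 0.0070). The part of these cell types in the differences of *Fbln2*, *Postn* and the lists was not tested.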

How the data were processed

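Primary mouse adult fibroblasts were sequenced by QuantSeq 3′ in 12 libraries, 6 per group, grouped by their titles. Per the labels and the study's methods, the authors aligned reads to GRCm38 with STAR 2.5.3, counted them with HTSeq-count 0.6.1, kept annotated genes that reached 30 reads in 6 or more samples, and applied TMM scaling. The authors deposited log2 CPM values with a prior count, which pulls weak genes towards each other. Whole reads were recovered from the steps between values: below 200 reads, 100% of values came within 0.02 of a whole number. Totals were 5435985 to 9049796, and the prior was 1.96 reads in an average library. Reads are PCR products, so totals speak of counting error only.

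Differences were tested with limma 3.58.1 in R 4.3.3 (lmFit, eBayes with a trend, no covariate), two-sided, adjusted by Benjamini-Hochberg over 10697 genes at 0.05, and the procedure was tested on simulated data. The unit was log2, so no count model was fitted beyond voom on recovered reads as an alternative. Exact permutation tests covered all relabellings. Other alternatives were another prior, a filter at a mean of 5, scaling, no trend, robust fitting, the replicate number as a block, odd or even numbers, and leaving out each library. The interaction of treatment with odd or even number was added after seeing the data.

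The 10 genes and all lists were chosen with earlier results of these data known. Named genes were the 10, up to 3 genes with the smallest p past the threshold per list, and *Lyz2*, *Cd68*, *Col1a1* and *Pdgfra*. *Fbln5*, *Ccn4*, *Itgb1*, *Cd44*, *Sdc4*, *Ankrd1*, *Yap1*, *Wwtr1*, *Fam20c*, *Aif1*, *Mpeg1*, *Cd14*, *Col3a1* and *Myh11* were named after their values were seen. Reads shared with near-identical or overlapping genes were handled by the authors' counting and not examined here.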

Additional observations from a re-analysis of the deposited data

Results flagged for a closer look

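Within each group of 6 libraries, a value was marked where its gap to the nearest other library was a large share of the group's range (Dixon's criterion at the 95% level). Of 20 groups tested, 10 genes in 2 conditions, 2 were marked, and chance marks about 1. *Ccn1* was 8.43 in thymol replicate 1, with a gap of 0.72 of the range. *Ccn2* was 11.98 in the same library, with a gap of 0.67 of the range. The cause of these low values was not tested.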

How the results depend on the processing

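Each result was recomputed under 25 alternatives. The number of the 10 genes past the threshold, 1 in the reported test, was 2 after median centring and 2 by voom (*Spp1* and *Fbln2* in each), 2 after quantile normalization (*Thbs1* and *Ccn2*), 0 without the trend and 0 by the exact permutation test, and ranged from 0 to 2 with 1 library left out. *Spp1* lost its call after quantile normalization (0.18), without the trend (0.22), with robust fitting (0.22) and in even-numbered libraries (0.079). It also lost it in 4 of 12 fits that left out 1 library (0.17 to 0.20, and 0.17 to 0.26 over all such fits). The exact test (0.22) kept no call for any gene after adjustment. *Fbln2* gained a call after median centring (-0.16), with robust fitting (-0.15) and by voom (-0.15). *Thbs1* gained one after quantile normalization (-0.18) and without thymol replicate 5 (range with 1 library left out -0.18 to -0.10), *Ccn2* after quantile normalization (-0.23) and *Postn* in even-numbered libraries (-0.77). *Thbs2* changed sign after median centring (-0.010), quantile normalization (-0.0042), by voom (-0.016), in odd-numbered libraries (-0.090) and with 1 library left out (-0.047 to 0.053), and *Ccn1* ranged from -0.072 to 0.043 with 1 library left out. *Postn* could not be fitted under the filter at a mean of 5. *Fn1*, *Sparc* and *Tnc* kept their direction and stayed short of the threshold in all 25 alternatives, though *Sparc* shrank to -0.013 after quantile normalization and *Fn1* to 0.033 without thymol replicate 5 and 0.019 in even-numbered libraries, against 0.13 in odd-numbered ones.

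Over all genes the count past the threshold, 238, fell to 57 without the trend, 70 in odd-numbered libraries and 0 by the exact test, whose smallest p of 0.0022 cannot pass after adjustment (1175 genes had an unadjusted p under 0.05). Without the trend the lists held 0 other glycoproteins, 0 receptors, 1 YAP and TAZ target, 0 regulators and 1 enzyme, and by the exact test 0 in each. Odd-numbered libraries gave 0 other glycoproteins and 0 receptors, and even-numbered libraries 0 regulators. Receptors ranged from 1 to 3 with 1 library left out. The 17 other named genes gave 424 values, of which 354 kept their direction and side of the threshold, 61 lost and 9 gained a call, and 0 changed sign. The 61 include losses under the exact test, where no call could be kept. The causes were not tested.

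Libraries of the 2 groups shared numbers 1 to 6. Deviations of same-numbered libraries correlated between -0.051 and 0.27, and 2 of 6 thymol libraries correlated best with their own number. The labels do not say whether same-numbered libraries were handled together, and these correlations cannot decide it. With the replicate number as a block, 332 genes passed, against 238 without it. Among them were 3 of the 10 genes (*Spp1*, *Thbs1* at -0.13 and *Fbln2* at -0.15) and 4 receptors. Depth limits *Postn* and *Thbs2* most, whose lowest libraries held 77 and 223 reads.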

Other observations

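*Ccn1* and *Ccn2* also varied with the replicate number in the DMSO group. *Ccn1* stood at 8.74, 8.79 and 8.77 in DMSO libraries 1, 3 and 5 and at 9.04, 9.02 and 8.85 in libraries 2, 4 and 6, and *Ccn2* at 12.36, 12.38 and 12.53 against 12.66, 12.66 and 12.56. For both genes all 3 odd-numbered libraries lay below all 3 even-numbered ones. In thymol the same held for *Ccn1*, at 8.43, 8.84 and 8.87 in libraries 1, 3 and 5 and 9.00, 8.90 and 8.95 in libraries 2, 4 and 6. It did not hold for *Ccn2* in thymol, at 11.98, 12.39 and 12.54 against 12.59, 12.55 and 12.51. The labels give the numbers no meaning, the pair was picked after its values were seen, and this difference was not tested. Library names run in order from thymol libraries 1, 3 and 5 to 2, 4 and 6, and then through DMSO likewise. Odd and even numbers are thus blocks of consecutive names. All thymol names precede all DMSO names, so treatment and any effect of that order cannot be told apart. *Fbln1*, a fibulin related to *Fbln2*, stood at 3.27 in thymol and 2.63 in DMSO, a difference of 0.64 in the opposite direction that did not pass (limma adjusted p = 0.18), and *Nt5e*, among the YAP and TAZ targets, stood at 1.30 and 2.17 (adjusted p = 0.35 in limma); both are weak genes named after their values were seen.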
